A study of Mus musculus with 6 samples.

Results

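Ptprv and Inka2 were described in cultures of primary mouse calvarial osteoblasts. They are 2 of the 20656 genes that the arrays name, and 4 of the 39429 probes. The genes were chosen by measured values of these same arrays, namely a signal in undifferentiated osteoblasts, a signal at background in differentiated osteoblasts, and detection again with cabozantinib. Every contrast among the 3 groups was therefore used in choosing them, and their levels are given as a description with no test. Osteoblasts were isolated from the calvaria (skull caps) of CD1 mice aged 2 to 5 days. The first group was collected undifferentiated, and the second after 30 days in differentiation medium. The third was kept in the same medium with 100 nM cabozantinib, an inhibitor of the receptor tyrosine kinases VEGFR2 and MET. Each group has 2 arrays, and RNA was labeled with Cy3. The labels do not say whether the 2 arrays of a group came from separate isolations, so the spread between them may be technical.

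Ptprv encodes OST-PTP (also called Esp), a receptor-type protein tyrosine phosphatase of osteoblasts and testis. In mouse osteoblasts it has been described as acting on the insulin receptor, and through it on the carboxylation of osteocalcin, and it has also been described as a p53 target that takes part in cell cycle exit. Inka2 (formerly Fam212b) encodes an inhibitor of the kinase PAK4, which acts on the actin cytoskeleton and cell adhesion, and it too has been described as a p53 target. Ptprv lies on chromosome 1 and Inka2 on chromosome 3. RefSeq on GRCm38.p6 lists Inka2 as protein coding and Ptprv as a transcribed pseudogene. The array carries Ptprv under NM_007955, which that table does not hold, and Inka2 under NM_175398.

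RefSeq gives Inka2 more than 1 start site, and both promoters on GRCm38.p6 are shown because its detection changed between the groups. Each covers 300 bases of the plus strand, from 250 bases before the start to 50 after it. The first is chr3:105704349-105704648 and the second chr3:105705208-105705507. Capitals mark CCAAT boxes (CCAAT), GC boxes (GGGCGG) and the p53 decamer, on either strand.

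Inka2 start 1: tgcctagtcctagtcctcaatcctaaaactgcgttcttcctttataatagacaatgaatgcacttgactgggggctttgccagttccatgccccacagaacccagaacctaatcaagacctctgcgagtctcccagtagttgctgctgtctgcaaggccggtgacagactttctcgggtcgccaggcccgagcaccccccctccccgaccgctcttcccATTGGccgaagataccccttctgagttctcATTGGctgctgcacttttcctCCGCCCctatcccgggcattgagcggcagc

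Inka2 start 2: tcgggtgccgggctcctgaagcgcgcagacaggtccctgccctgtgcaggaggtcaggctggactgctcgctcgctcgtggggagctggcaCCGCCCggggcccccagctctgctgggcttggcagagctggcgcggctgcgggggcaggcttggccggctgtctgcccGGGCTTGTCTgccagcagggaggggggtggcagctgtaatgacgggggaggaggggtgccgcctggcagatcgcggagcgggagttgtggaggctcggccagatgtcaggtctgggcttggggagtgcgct

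The first window had a GC content of 56.3% and the second of 72%, where the median of all 32851 promoters was 52.7%. The first held 2 CCAAT boxes and 1 GC box, and the second 1 GC box and no CCAAT box. A CCAAT box was found in 37.4% of all promoters of this length and a GC box in 35.7%. The p53 decamer occurred once in the second window and not in the first, and 8.36% of all promoters held it. The Runx motif TGTGGT, found in 16.8% of all promoters, was in neither window. These matches are letters in a window and are not measured sites.

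Before the values, some properties of the arrays bear on both genes. Of the spots, 58.8% to 72.9% were well above background, the scanner software's stricter detection call, and none was saturated. A laxer call of the software marks a signal as positive and significant. Levels are given as the processed signal in arbitrary units and, between arrays, as the log2 signal relative to the 75th percentile of the array, which ranged from 625 to 1773 over the arrays. Per the file headers, the undifferentiated and differentiated arrays belong to 1 scan and the cabozantinib arrays to another, so that scan and cabozantinib cannot be told apart. On the log2 scale the median gene was 0.29 lower with cabozantinib than in differentiated osteoblasts, and bounds relative to that gene are given beside the main ones. Of the 14 osteoblast markers, 13 were on the array, and 11 to 13 of them were well above background on every array. Runx2 was well above background on neither differentiated array.

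Ptprv was clearly detected in undifferentiated osteoblasts, could not be distinguished from background after differentiation, and was detected at a low level with cabozantinib. At its brighter probe the processed signal of undifferentiated osteoblasts was 275 in replicate 1 and 755 in replicate 2. Differentiated osteoblasts gave 5.81 and 3.64 in the same order. Cabozantinib-treated osteoblasts gave 93.7 and 31.1. Relative to the 75th percentile the log2 level was −1.18 and −1.23 in undifferentiated osteoblasts, −7.56 and −7.48 in differentiated osteoblasts, and −3.77 and −4.95 with cabozantinib. The lowest undifferentiated level was 2.54 (log2) above the highest cabozantinib level. The lowest cabozantinib level was 0.71 above −5.66, the higher of the lowest levels called well above background on the 2 differentiated arrays.

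The Ptprv values of differentiated osteoblasts are not measured levels. On these 2 arrays the signal after background subtraction was negative, at −0.747 and −2.85, and the software replaced it by a small positive number close to its own error estimate (5.79 and 3.63). These 2 values therefore have no order, and their closeness is not a measure of precision. Neither array had a positive and significant signal at this probe. Where Ptprv was detected, the ratio of signal to error was 9.78 and 9.98 before differentiation and 8.26 and 5.16 with cabozantinib.

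Because no differentiated array measured Ptprv, its folds are lower bounds under a chosen limit. Each sets the mean log2 level of the brighter group against the higher of the lowest signal called well above background and the probe's own signal on each differentiated array. That lowest signal was 25.8 and 12.1 on the differentiated arrays. It is not a strict limit, since the brightest signals not so called there were 34.4 and 23.0. The bounds of both genes hold for this choice of limit and would be lower with a higher one. Ptprv was at least 26.1-fold higher in undifferentiated than in differentiated osteoblasts. With cabozantinib it was at least 2.93-fold higher than in differentiated osteoblasts, and at least 3.58-fold relative to the median gene. The bound with cabozantinib rested on both arrays unequally, being 1.95 without cabozantinib replicate 1 and 4.42 without replicate 2. It was 1.31 under a normexp background correction, 1.85 with the 1st percentile of detected signals as the limit, and 5.11 with quantile normalization.

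The level of Ptprv with cabozantinib stayed below that of undifferentiated osteoblasts. Both groups were measured here, with a mean log2 level of −4.36 ± 0.84 (SD, n = 2) with cabozantinib and −1.21 ± 0.04 (SD, n = 2) in undifferentiated osteoblasts. The difference was −3.15 on the log2 scale, an 8.90-fold lower level, or −2.80 relative to the median gene. The cabozantinib replicate 2 signal of 31.1 lay close to the detection limit, since the lowest signal called well above background on that array was 22.7 and the brightest signal not so called was 30.0.

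The second probe of Ptprv gave no measurement. Its signal was 5.16 and 4.49 before differentiation, 5.78 and 3.35 after it, and 7.07 and 5.25 with cabozantinib. It was neither well above background nor positive and significant on any of the 6 arrays, undifferentiated arrays included, and no fold is given. On these arrays the pattern of Ptprv therefore rests on a single probe. Separately, the study reports from real-time RT-PCR that cabozantinib raised Ptprv mRNA in osteoblasts differentiated for fewer days than its array methods state. That comparison was between treated and untreated cells. The authors' table of values lists the brighter probe and not the second.

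Inka2 was detected in undifferentiated osteoblasts, was not detected by the stricter call after differentiation, and was again well above background with cabozantinib at its brighter probe. In undifferentiated osteoblasts the processed signal of that probe was 249 in replicate 1 and 1276 in replicate 2. Differentiated osteoblasts gave 20.8 and 7.08 in the same order. Cabozantinib-treated osteoblasts gave 257 and 83.5. Relative to the 75th percentile the log2 level was −1.32 and −0.47 in undifferentiated osteoblasts, −5.72 and −6.52 in differentiated osteoblasts, and −2.31 and −3.52 with cabozantinib. The lowest undifferentiated level was 0.99 (log2) above the highest cabozantinib level. The lowest cabozantinib level was 2.13 above −5.66, the higher of the lowest levels called well above background on the differentiated arrays.

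Unlike Ptprv, Inka2 still gave a signal in differentiated osteoblasts. Its signal after background subtraction was positive, at 20.3 and 7.08, and was called positive and significant on both arrays, with a ratio of signal to error of 3.39 and 2.05. By the laxer call Inka2 was thus detected on all 6 arrays, and "at background" holds for it only by the stricter call. Its differentiated signals lay below the lowest signal called well above background on each array, 25.8 and 12.1.

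By the same bound, Inka2 was at least 32.3-fold higher in undifferentiated than in differentiated osteoblasts. With cabozantinib it was at least 7.96-fold higher than in differentiated osteoblasts, and at least 9.71-fold relative to the median gene. The bound with cabozantinib was 5.23 without cabozantinib replicate 1, 12.1 without replicate 2, 2.10 under a normexp background correction, 5.01 with the 1st percentile of detected signals as the limit, and 12.3 with quantile normalization. The mean log2 level was −2.92 ± 0.86 (SD, n = 2) with cabozantinib and −0.90 ± 0.60 (SD, n = 2) in undifferentiated osteoblasts. Inka2 was thus 4.05-fold lower with cabozantinib than in undifferentiated osteoblasts, a log2 difference of −2.02, or −1.66 relative to the median gene.

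The second probe of Inka2 passed the stricter call in undifferentiated osteoblasts alone. Its signal was 34.8 and 82.7 before differentiation, where it was well above background. Differentiated osteoblasts gave 7.70 and 9.85 and cabozantinib-treated osteoblasts 18.7 and 16.3, and the probe was well above background on none of these 4 arrays. Undifferentiated osteoblasts were at least 2.94-fold higher than differentiated osteoblasts and at least 2.27-fold higher than cabozantinib-treated osteoblasts at this probe. The log2 levels relative to the 75th percentile overlapped between differentiated (−7.15 and −6.04) and cabozantinib-treated osteoblasts (−6.09 and −5.88). On the authors' log2 values they did not overlap, with 2.89 and 3.35 in differentiated osteoblasts and 4.50 and 4.64 with cabozantinib. All 6 signals were positive and significant.

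**Figure D1:**
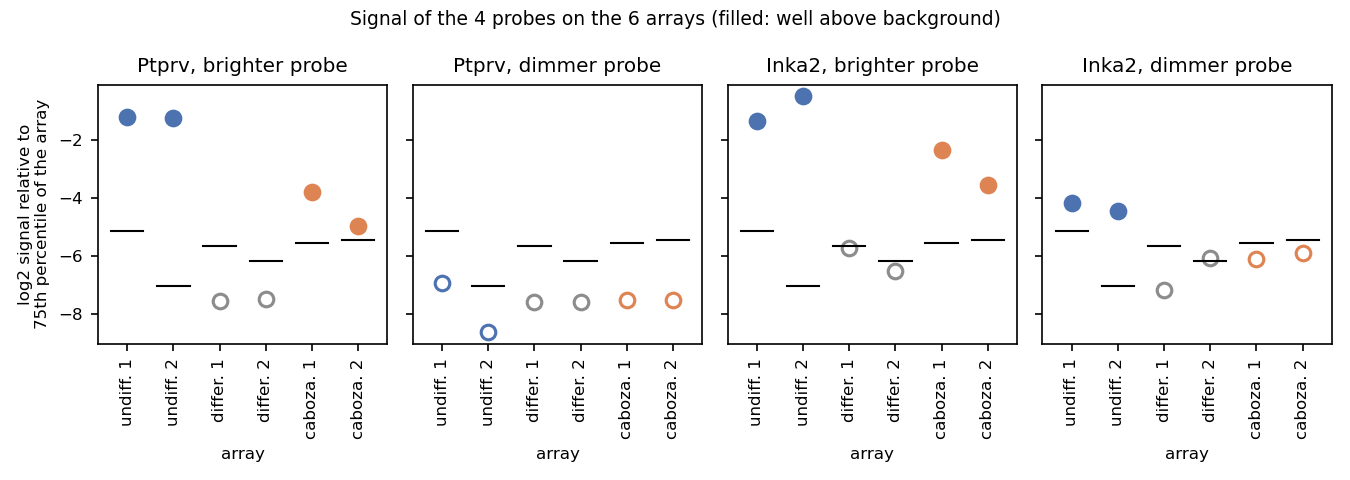
Log2 signal relative to the 75th percentile of the array (vertical axis) of the brighter and dimmer probes of Ptprv and Inka2 on the 2 undifferentiated (undiff.), 2 differentiated (differ.) and 2 cabozantinib (caboza.) arrays. Filled points are well above background, open points are not, and black bars mark the lowest signal called well above background on each array. The brighter probes are open only on the differentiated arrays, the dimmer Ptprv probe is open on all 6 arrays, and the dimmer Inka2 probe is filled only on the undifferentiated arrays.

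The spread between the 2 cabozantinib arrays was similar in the 2 genes and wider than the median over all detected probes. Replicate 1 was 2.27-fold above replicate 2 for Ptprv and 2.32-fold for Inka2, where the median difference over all detected probes was 1.23-fold. That median covers probes of every brightness, and probes as dim as these were not compared. On the undifferentiated arrays Ptprv differed 1.04-fold and Inka2 1.80-fold, against a median of 1.59-fold. Over the 6 arrays the brighter probes of Ptprv and Inka2 had a Pearson correlation of 0.98. Both genes were chosen for this order of the groups, and for Ptprv the value includes the 2 values set by the software.

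Detection on both undifferentiated, neither differentiated and both cabozantinib arrays was rare. It was found at 90 of the 39352 probes measured on all 6 arrays, or 0.229%, and 79 of these probes have a RefSeq gene. For comparison, 257 probes were well above background on the undifferentiated arrays alone, 1368 on the undifferentiated and differentiated arrays but neither cabozantinib array, and 49 on the cabozantinib arrays alone. Of the 90 probes, 84 were lower with cabozantinib than in undifferentiated osteoblasts, as Ptprv and Inka2 were, and 6 were higher. In only 3 of the 90, Ptprv among them, was neither differentiated array positive and significant.

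Within these 90 probes Inka2 had the highest bounds and Ptprv a middling bound with cabozantinib. The bound of cabozantinib over differentiated osteoblasts ran from 1.24 to 7.96 with a median of 2.26, and Inka2 ranked 1st and Ptprv 33rd. The bound of undifferentiated over differentiated osteoblasts had a median of 5.38, and Inka2 ranked 1st and Ptprv 3rd. The RefSeq genes with the highest bounds with cabozantinib after Inka2 were Mprip (4.75), which encodes a myosin phosphatase-interacting protein, Rassf6 (4.56), of the Ras association domain family, Cpsf1 (4.56), a subunit of the mRNA cleavage and polyadenylation machinery, and Ifi35 (4.53), an interferon-induced gene.

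**Figure D2:**
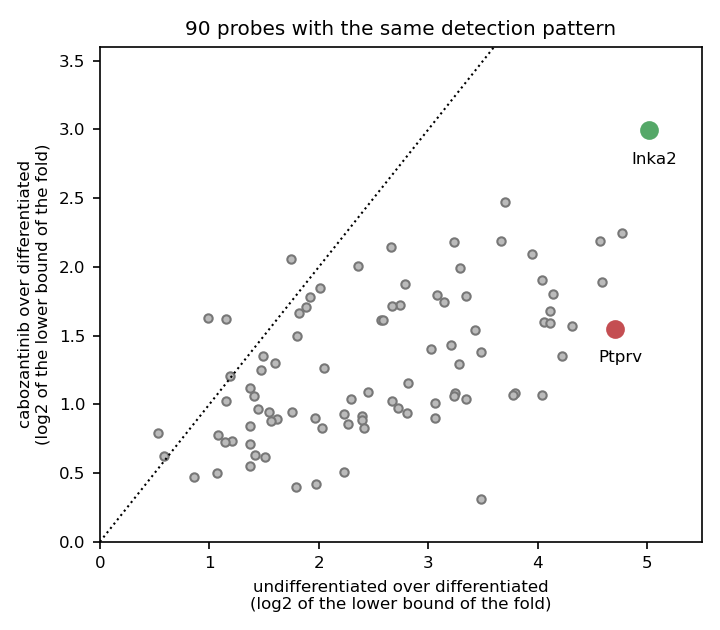
The 90 probes well above background on both undifferentiated, neither differentiated and both cabozantinib arrays, by the lower bound of the fold of undifferentiated (horizontal axis) and cabozantinib-treated (vertical axis) over differentiated osteoblasts, both as log2. Inka2 (green) lies highest on both axes, Ptprv (red) lies far right with a middle position on the vertical axis, and the dotted line marks equal bounds.

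In most genes of this kind that had another probe, another probe was detected on both differentiated arrays by the stricter call. Of the 79 genes, 33 had another probe, and in 27 of these (81.8%) another probe was well above background on both differentiated arrays. No other probe had the same detection pattern. Mprip was such a gene, whose other probe had a mean log2 level of 1.33 before and −0.82 after differentiation, and of 0.37 with cabozantinib. In the other 6 genes, Ptprv and Inka2 among them, no other probe passed that call. In 4 of these 6, Ptprv included, no other probe was well above background on any array, so that it could not show a level in either direction.

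By array profile, the genes most like Ptprv were Gfus (Pearson r = 0.999 over 6 arrays), Snap47 (0.998), Gmpr2 (0.998), Upf3a (0.997) and Myg1 (0.997). They were taken from 3335 genes that varied by an SD of at least 1 on the log2 scale. Gfus is an enzyme of GDP-fucose synthesis and Upf3a a factor of nonsense-mediated mRNA decay. Gmpr2, a guanosine monophosphate reductase, had the same detection pattern as Ptprv, and the other 4 were well above background on all 6 arrays. Gfus had a log2 level of −0.38 and −0.28 before differentiation, −2.68 and −2.61 after it, and −1.28 and −1.71 with cabozantinib, so that it moved in the same order over a smaller range. These correlations include the 2 Ptprv values that were set by the software.

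The genes most like Inka2 were Cyb5r3 (r = 0.996), Loxl1 (0.996), Sdc1 (0.996), Kdelr3 (0.996) and Pde6d (0.995). Each of these 5 genes was detected on every array by the stricter call. Loxl1 encodes a lysyl oxidase-like enzyme that crosslinks elastin, and Sdc1 the cell surface proteoglycan syndecan-1. Kdelr3, a receptor that returns proteins to the endoplasmic reticulum, had a log2 level of 0.71 and 1.57 before differentiation, −2.79 and −2.99 after it, and −0.02 and −1.12 with cabozantinib. As with Inka2, its replicate 1 was the higher with cabozantinib and its replicate 2 the higher in undifferentiated osteoblasts. Ptprv ranked 66th among the profiles like that of Inka2, and Inka2 ranked 75th among those like that of Ptprv. Genes are not independent replicates, and with 6 arrays in 3 groups many profiles correlate.

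**Figure D3:**
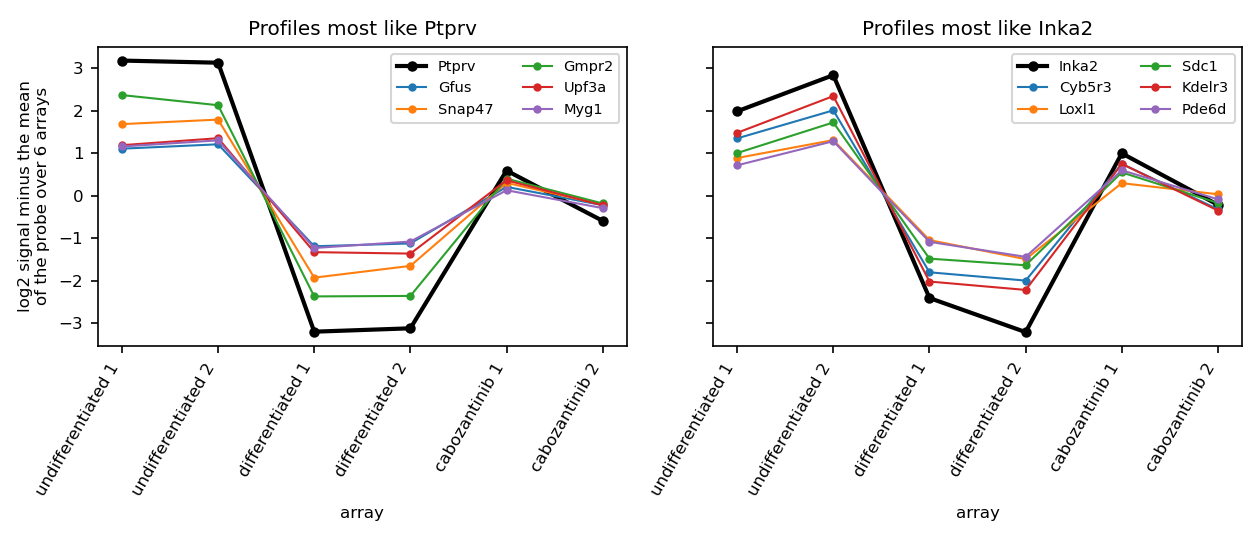
Log2 signal of each probe minus its mean over the 6 arrays (vertical axis) on each array (horizontal axis), for Ptprv and Inka2 (black) and the 5 genes with the highest Pearson correlation to each. All profiles are highest on the undifferentiated and lowest on the differentiated arrays. The Ptprv points on the differentiated arrays are not measured levels.

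The marker lists and the relatives and pathway partners of Ptprv and Inka2 were compared with limma over all 23058 genes tested, with Benjamini-Hochberg adjustment over all of them. With cabozantinib against differentiated osteoblasts, 0.117% of all genes were called higher and 2.36% lower at an adjusted p under 0.05. With differentiated against undifferentiated osteoblasts, 5.26% were called higher and 4.46% lower. A count of 0 genes called higher with cabozantinib in a short list is near that background.

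Markers of other cell types and proliferation genes also moved between the groups. The log2 of the summed level of the macrophage and leukocyte markers (9 of 10 on the array) was 5.94 and 5.15 before differentiation, 8.30 and 8.78 after it, and 8.17 and 8.46 with cabozantinib. That of the 7 adipocyte markers was 2.34 and 2.50, then 6.05 and 6.53, then 5.81 and 5.81, and the adipocyte markers Adipoq and Cfd were well above background on neither undifferentiated array. Between differentiated and cabozantinib-treated osteoblasts, where Ptprv and Inka2 differed in detection, the macrophage sums overlapped. The adipocyte sum came mainly from Lpl (log2 change 0.31 with cabozantinib) and Fabp4 (−2.05, limma adjusted p = 0.0632), and 6 of the 7 markers had a negative change, with a median of −1.36. Of these 7, Cfd was called lower with cabozantinib, by a log2 change of −3.67 (SE 0.66, limma adjusted p = 0.0477), and 5 rose after differentiation. Among 4 endothelial markers tested of 6, Cdh5 was called lower with cabozantinib, by −2.40 (SE 0.50, limma adjusted p = 0.0477), and Cldn5 was well above background on neither cabozantinib array. With quantile normalization neither Cfd nor Cdh5 was called. The sum of the 6 muscle markers came mainly from Acta1, skeletal alpha actin, and had the order of the 2 genes, with 2.21 and 2.13 before differentiation, −0.13 and 0.18 after it, and 1.64 and 1.30 with cabozantinib. The myogenic regulators did not have that order, with log2 changes with cabozantinib of −1.64 for Myod1 (limma adjusted p = 0.0851) and −1.16 for Myog (limma adjusted p = 0.191), and Des and Ckm were well above background on no differentiated or cabozantinib array. Of 12 proliferation genes, 2 were called lower after differentiation, Plk1 (log2 change −1.76, limma adjusted p = 0.0491) and Top2a, which was at least 18.8-fold higher in undifferentiated osteoblasts, and 11 of the 12 had a negative change. With cabozantinib limma called none of the 12, and 9 had a positive change. The median log2 change of the 12 was 0.36, against −0.29 for all genes. At an unadjusted p under 0.05 in limma, 1 was higher (Top2a) and 1 lower (Aurkb). Top2a had log2 levels of −3.75 and −5.70 with cabozantinib and was well above background on 1 of these 2 arrays. The second level lay below −5.43, the lowest level called well above background on that array, so no bound is given. The part of these cell types in the levels of Ptprv, Inka2 and the relatives and partners below was not tested. In bulk RNA fewer cells of a type and less RNA per cell cannot be told apart.

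Of the 20 other receptor tyrosine phosphatases listed, 15 were tested, and limma called none higher with cabozantinib, also at an unadjusted p under 0.05. Ptprt was called lower (limma adjusted p = 0.048) and was well above background on neither cabozantinib array, so that differentiated osteoblasts were at least 2.86-fold higher. After differentiation 3 of the 15 rose, or 5 in the fit without the replicate block, whose numbers did not pair the arrays. The 3 were Ptprj (log2 change 3.28 ± 0.54 SE, limma adjusted p = 0.0049), a phosphatase that acts on growth factor receptors, Ptpro (2.97 ± 0.49 SE, limma adjusted p = 0.00496) and Ptpre (2.76 ± 0.50 SE, limma adjusted p = 0.00766). Ptprd was called lower (limma adjusted p = 0.0498) and was at least 9.49-fold higher in undifferentiated osteoblasts. With cabozantinib it was well above background on 1 of 2 arrays, so that its pattern differed from that of Ptprv. With quantile normalization, neither Ptprt nor Ptprd was called. Ptprb, an endothelial relative of Ptprv, was well above background on 1 undifferentiated array alone and was not tested.

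In the list of osteocalcin and insulin signaling, to which Ptprv is linked, none of 14 genes tested was called in either direction with cabozantinib, where the median log2 change was 0.18 against −0.29 for all genes. At an unadjusted p under 0.05 in limma, 1 of the 14 was higher (Ptpn1) and 1 lower (Irs2, log2 change −1.23). After differentiation the osteocalcin genes Bglap2 (log2 change 5.06 ± 0.50 SE, limma adjusted p = 0.000486) and Bglap3 (4.91 ± 0.61 SE, limma adjusted p = 0.00136) rose in the group in which Ptprv was not detected. Near-identical copies of these genes may share signal. With cabozantinib their log2 changes were −0.08 and −0.24. Ptpn1, a phosphatase of the insulin receptor outside the receptor class, fell by 3.07 on the log2 scale after differentiation (SE 0.58, limma adjusted p = 0.00922), where it was well above background on 1 of 2 arrays. With cabozantinib its log2 change was 1.71 (limma adjusted p = 0.116). The insulin receptor gene Insr had a log2 change of −0.08 after differentiation (limma adjusted p = 0.983), where its 2 arrays lay apart at −5.19 and −2.83. With cabozantinib its log2 change was −1.24 (limma adjusted p = 0.271).

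Among the 15 genes tested of 17 listed for INKA proteins and PAK kinases, limma called none in either comparison. At an unadjusted p under 0.05, 1 was lower with cabozantinib (Pxn, log2 change −1.57) and 2 were lower after differentiation. With cabozantinib 6 of the 15 had a positive change, with a median of −0.10 against −0.29 for all genes. After differentiation 1 was called lower without the replicate block, on the 4 arrays compared, with a variance trend, and among probes well above background on all 6 arrays. Pak1, a kinase of the same family as Pak4, had log2 changes of −2.12 after differentiation (SE 0.62, limma adjusted p = 0.0641) and 1.1 with cabozantinib (SE 0.62, limma adjusted p = 0.347), and was chosen after its values were seen. Inka1, the closest relative of Inka2, had a log2 change of −1.17 after differentiation (limma adjusted p = 0.21) and of 0.23 with cabozantinib (limma adjusted p = 0.896), and it was well above background on 1 of 2 arrays in each group. Pak4, the kinase that Inka2 inhibits, was well above background on all 6 arrays, with log2 changes of 0.58 after differentiation (limma adjusted p = 0.635) and −0.32 with cabozantinib (limma adjusted p = 0.825).

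Since both genes have been described as p53 targets, 25 other p53 targets were listed and 24 were tested. After differentiation 5 of the 24 fell and 1 rose, with a median log2 change of −0.65 against 0.11 for all genes. Cdkn1a, the cell cycle inhibitor p21, fell by 2.15 on the log2 scale (SE 0.53, limma adjusted p = 0.0301). The others that fell were Ei24, Perp, Gtse1 and Ccng1, by 3.80, 2.23, 2.12 and 2.04, and Sesn1, a stress-induced gene, rose by 2.50. Ei24 was well above background on 1 of the 2 differentiated arrays. On the authors' values, under normexp and with no filter on dim probes, 1 p53 target was called lower in place of 5. Mdm2, the p53 ubiquitin ligase, had a log2 change of −0.91 (limma adjusted p = 0.404). With cabozantinib limma called none of the 24 (1 higher and 2 lower at an unadjusted p under 0.05), and 13 of the 24 had a positive change, with a median of 0.14 against −0.29 for all genes. Cdkn1a had a log2 change of 0.70 with cabozantinib (limma adjusted p = 0.519) and Ei24 of 1.87 (limma adjusted p = 0.154). Of the others that fell after differentiation, Ccng1 had a change of 0.88, Perp of 0.17 and Gtse1 of −0.02. At the unadjusted threshold the higher gene was Ei24, and the lower ones were Plk2 (−1.52) and Gdf15 (−1.30).

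**Figure D4:**
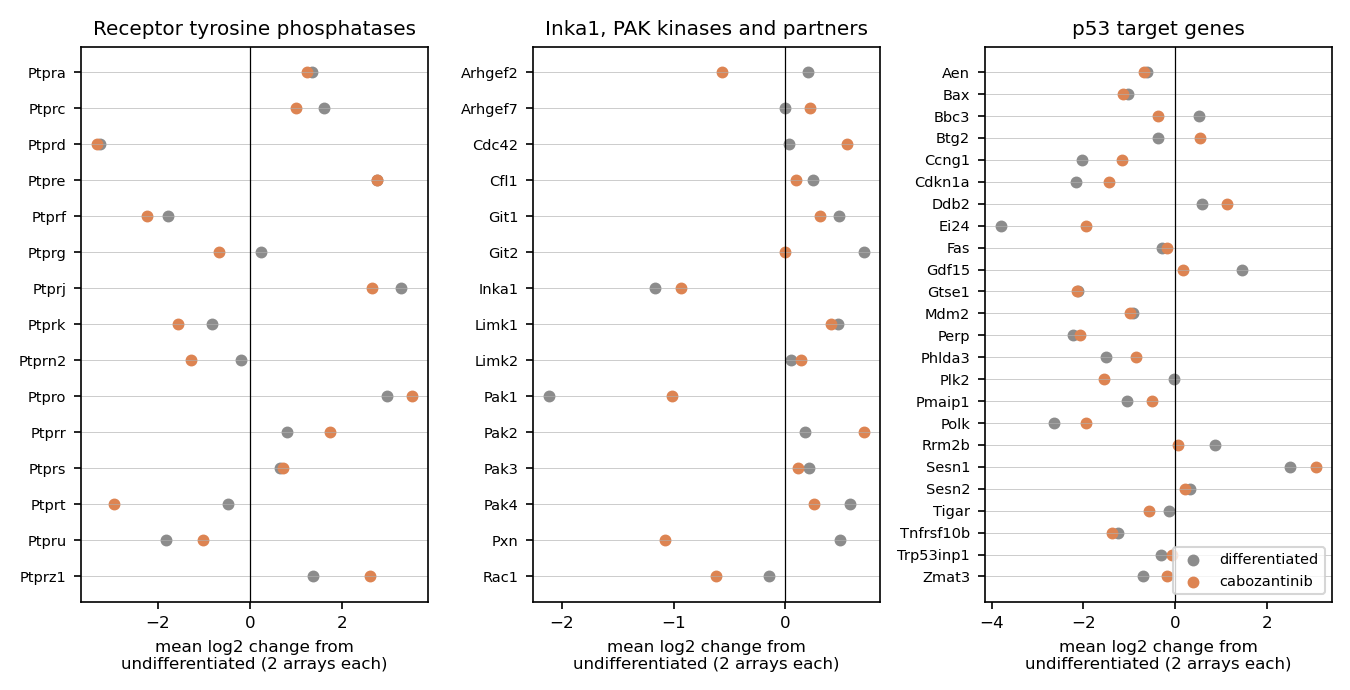
Mean log2 change from undifferentiated osteoblasts (horizontal axis, 2 arrays per group) in differentiated (gray) and cabozantinib-treated (orange) osteoblasts, for the genes tested of 3 lists. Ptprj, Ptpro and Ptpre lie to the right of 0 in both groups. The points of the 2 groups lie close together for Inka1, to the left of 0, and for Pak4, to the right. The p53 targets Ei24 and Cdkn1a lie further left in differentiated osteoblasts, and the points of Perp and of Gtse1 lie close together. Ptprt was not well above background with cabozantinib and Ptprd not in differentiated osteoblasts, so that these points are not measured levels.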

How the data were processed

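The 6 arrays were analyzed with 2 for each of the 3 groups given by the sample labels. Per the file headers, the deposited intensities are processed signals of Feature Extraction 11.0.1.1, background-subtracted and detrended, and not scaled between arrays. The authors' deposited log2 values, made by unstated steps, served as an alternative. Control and outlier spots were removed, replicate spots averaged, and log2 signals taken relative to each array's 75th percentile. RefSeq accessions named 69.1% of the probes. The day of collection is from the array methods, while the results of the study speak of an earlier day.

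Groups were compared with limma 3.58.1 (R 4.3.3) in a fit of all 6 arrays in which the replicate number was a block, since the methods name a paired test. Probes well above background on at least 2 arrays were kept, 1 per gene (the brightest), and p-values were adjusted by Benjamini-Hochberg over all genes tested. Residual degrees of freedom were 2. The functions were tested on simulated data. The genes and the lists were chosen with earlier results of these data known. Both genes are described at every probe, and other named genes are the 5 most alike profiles, the 5 highest bounds, called list members and the closest relatives. Pak1, Insr, some marker genes and genes that passed only an unadjusted p were named outside this rule. Alternatives were scaling, background correction, detection filter, floor of the bounds, block, variance and left-out arrays. The normexp correction (offset 50) used median signals, since these are what the scanner tables hold. Python 3.11.15, pandas 2.3.3, data.table (1.17.8) and matplotlib 3.10.9 were used. The small number of arrays limits the precision. Probe sequences and the Ptprv promoter were not analysed here.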

Additional observations from a re-analysis of the deposited data

How the results depend on the processing

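The order of the groups at the brighter probes of Ptprv and Inka2 held under every alternative run, and the sizes did not. Both genes were chosen for this order on these same arrays, so that its holding is no independent support for it. Under normexp the bound of cabozantinib over differentiated osteoblasts was 1.31 for Ptprv and 2.10 for Inka2, the bound of undifferentiated over differentiated osteoblasts 5.75 and 6.95, and the difference of cabozantinib from undifferentiated osteoblasts −2.14 for Ptprv. The Ptprv bound of undifferentiated over differentiated osteoblasts was 31.1 with quantile normalization, 21.7 on the authors' values, 16.4 with the 1st percentile as the floor and 21.9 to 31.1 with 1 array left out. That of Inka2 was 20.3 with the 1st percentile and 2.94 at its dimmer probe, an alternative added after seeing the data. The dimmer Ptprv probe gave no value.

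Each count here is the total of a separate fit. For cabozantinib against differentiated osteoblasts, where the main total was 572, limma called 0 genes with quantile normalization, on the authors' values and with no filter on dim probes (4025, 4165 and 5621 genes at an unadjusted p under 0.05), 1 with normexp, 2 among probes well above background on all 6 arrays, 5544 on the 4 arrays compared and 41 to 5544 with 1 array left out. For differentiated against undifferentiated osteoblasts, where the main total was 2242, it called 1464 on the authors' values, 858 with normexp, 1415 with no filter and 1350 to 4398 with 1 array left out. The replicate numbers did not pair the arrays, with correlations of deviations of −0.51, −0.53 and 0.26. Without the replicate block 2947 and 3092 genes were called, and with the undifferentiated numbers crossed (added after seeing the data) 7049 and 6025. The cause of these shifts was not tested.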
